A study of Homo sapiens with 6 samples.

Results

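Kinesins are motor proteins that use ATP to walk along microtubules or to take them apart, and 43 protein-coding kinesin genes were followed here in human U2OS cells after knockdown of SURF2. Members were protein-coding genes whose symbol is KIF, KIFA or KIFC followed by a number and, in some, a letter A, B or C, together with KIFAP3, the accessory subunit that links kinesin-2 motors to cargo. They are 43 of 58051 genes in the count table, of which 19737 are protein-coding. By known role, 15 were listed as mitotic, 16 as transport and 12 as other kinesins. The symbol rule leaves out CENPE, the kinesin-7 of the kinetochore, which is given below with the mitotic partner genes.

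U2OS is an established human osteosarcoma line. The siSURF2 group (3 libraries) received an siRNA against SURF2, a gene of the surfeit cluster, and the siSCR group (3 libraries) received a scrambled siRNA. Both groups grew in the same serum-containing medium, were transfected 2 times at a 49 h interval and were harvested at 96 h, and polyA RNA was sequenced. The series title places SURF2 as an antagonist of MDM2, the ubiquitin ligase that restrains p53, in nucleolar stress. The comparison asked which mRNAs differ when SURF2 is lowered.

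A dividing cell builds its spindle with kinesins that push the poles apart, move chromosomes, shorten microtubules and, at the end of mitosis, organise the midzone and the midbody. Transport kinesins carry vesicles, endosomes, mitochondria and ciliary cargo outward along microtubules, often as a pair of motor heavy chains bound to light chains or adaptors. Mitotic kinesin mRNAs peak in G2 and mitosis, when factors bound to CHR elements and CCAAT boxes of their promoters are most active, while many transport kinesins are best known from neurons.

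Levels are counts scaled to TMM-normalised library size (CPM). SURF2 itself had 3.50 ± 0.276 CPM in siSURF2 cells and 34.8 ± 2.11 CPM in siSCR cells (SD, n = 3 each), a log2 fold change of -3.31 ± 0.10 (SE, adjusted p = 3.7e-20). Counts assigned to genes lay between 18151554 and 19688089 in siSURF2 libraries and between 17123333 and 19573786 in siSCR libraries. Measured by chi-square per degree of freedom across genes, siSURF2 replicate 2 stood at 7.96 and 9.19 from siSURF2 replicates 1 and 3, which stood at 2.68 from each other. The siSCR libraries stood 2.38 to 4.11 apart, and libraries of different groups 32.1 to 39.2. Mesenchymal markers summed to 3471 to 3822 CPM in siSURF2 libraries and 3147 to 3202 CPM in siSCR libraries, although TWIST1 had no count in any library and COL1A2 was close to 0, so these 2 markers did not mark the line. Of the 6 mesenchymal markers tested 3 rose and 1 fell. Blood and endothelial markers summed to 0.93 to 1.3 CPM in siSURF2 libraries and 1.82 to 2.32 CPM in siSCR libraries, with CD3E and HBB at 0 and 1 of the 6 high enough to test, which fell. Epithelial markers summed to 1035 to 1112 CPM in siSURF2 libraries and 1481 to 1608 CPM in siSCR libraries. Most of this sum was KRT8 (mean 726 CPM in siSURF2 and 1028 CPM in siSCR cells) and KRT18 (302 and 487 CPM). Of the 5 epithelial markers tested 2 rose (EPCAM and CLDN4) and 3 fell (KRT8, KRT18 and CDH1). Beside these marker counts, 25.8% of all genes tested were higher and 26.2% lower. The part of these markers in the values of the kinesins was not tested. Nothing in the labels says that the replicates came from separate cultures. The p-values therefore reflect spread between libraries that may be only technical.

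Kinesins moved in both directions in siSURF2 cells. Of the 43, 38 passed the filter on low counts and could be tested, and 5 could not (KIF2B, which had no count in any library, and KIF4B, KIF12, KIF19 and KIF25). By edgeR's quasi-likelihood test with Benjamini-Hochberg adjustment across the 17561 tested genes, at a threshold of 0.05, 14 kinesins rose, 13 fell and 11 did not pass. That is 71.1% of the tested kinesins called, with 36.8% higher and 34.2% lower. Over all genes tested the share called was 52.0%, with 25.8% higher and 26.2% lower, so a call by itself does not set a kinesin apart. Among the 13649 protein-coding genes tested, 29.1% were higher and 29.4% lower. Groups did not overlap for 30 of the 38 kinesins, against 57.3% of all genes. The median log2 fold change of the kinesins was 0.02, against 0.0042 for all genes tested, and their median absolute log2 fold change was 0.27, against 0.29. Where library sizes were taken from the ERCC spike-ins instead, the called kinesins all had the same direction (27 of 27), but 1 kept its call, KIF13B (adjusted p = 6.0e-04).

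**Figure D1:**
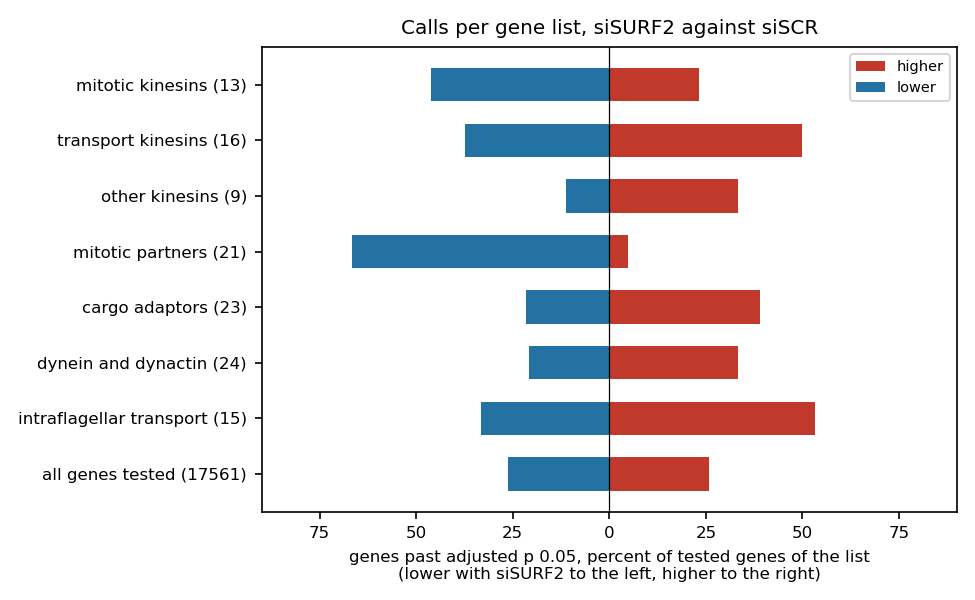
Percent of tested genes called higher or lower in siSURF2 than in siSCR cells (edgeR, adjusted p under 0.05), for each list of kinesins and partner genes and for all genes tested. Among mitotic kinesins 3 of 13 tested were higher and 6 lower, and among transport kinesins 8 of 16 were higher and 6 lower, against 25.8% higher and 26.2% lower of all genes.

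Of the mitotic kinesins, 13 of 15 were tested. In siSURF2 cells 3 rose (KIF20B, KIF14 and KIF4A), 6 fell (KIF18B, KIF20A, KIF23, KIF11, KIFC1 and KIF2A) and 4 did not pass (KIF2C, KIF15, KIF18A and KIF22). Their log2 fold changes ran from -0.45 to 0.46 with a median of -0.11, and the median was -0.05 without siSURF2 replicate 1 and -0.07 with upper-quartile factors. Transport kinesins were all tested, and 8 rose, 6 fell and 2 did not pass, with log2 fold changes from -0.64 to 1.23 and a median of 0.15. With upper-quartile factors, 9 transport kinesins were higher and 4 lower, beside 5154 genes higher and 3986 lower in all. Among the other kinesins 9 of 12 were tested, of which 3 rose, 1 fell and 5 did not pass, with a median of 0.28, which was 0.46 without siSCR replicate 3. The share called was 69.2% of mitotic, 87.5% of transport and 44.4% of other kinesins tested. Over all genes tested it was 52.0%, with 25.8% higher and 26.2% lower. The difference between these lists, or from all genes, was not tested. Divided by exon length, the mitotic kinesins summed, in CPM per kb of exon, to 354, 364 and 349.6 in siSURF2 libraries and 380.1, 379 and 384 in siSCR libraries, without overlap between groups. The transport kinesins summed on the same scale to 178, 185 and 176 in siSURF2 libraries and 189.6, 188 and 187 in siSCR libraries, again without overlap. In plain CPM, not divided by length, the transport sum was 1376, 1422 and 1347 in siSURF2 libraries and 1436, 1422 and 1406 in siSCR libraries, and there the groups overlapped. The other kinesins summed, per kb, to 31.6 ± 0.537 in siSURF2 libraries and 28.6 ± 0.548 in siSCR libraries (SD, n = 3 each), higher in siSURF2 without overlap. More transport kinesins rose than fell, but the abundant KIF5B, KIF1C and KIF3B were among those that fell. These sums have no test.

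**Figure D2:**
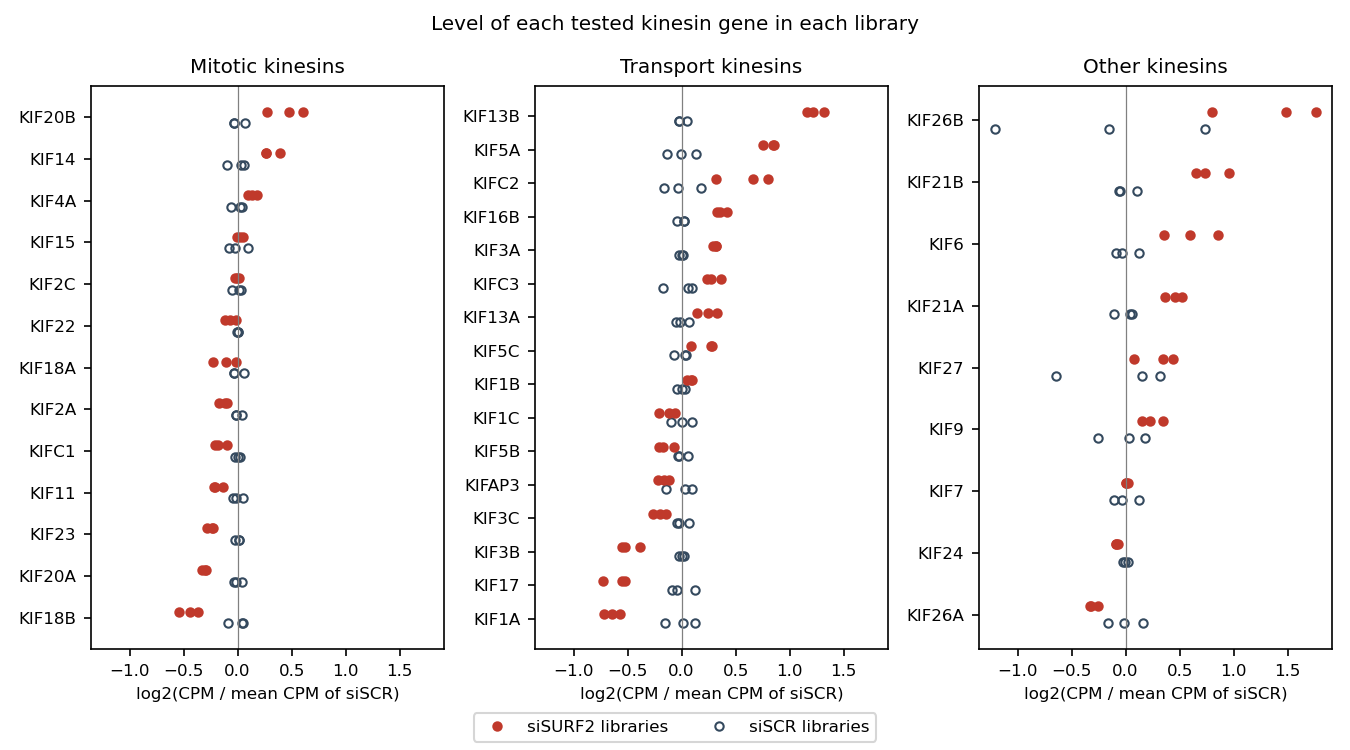
Level of each tested kinesin in each library, as log2 of CPM over the mean CPM of the siSCR libraries, in 3 panels by role, with siSURF2 libraries as filled points above the open points of siSCR libraries. KIF20B and KIF14 lie to the right and KIF18B and KIF20A to the left among mitotic kinesins, and KIF13B stands farthest right among transport kinesins.

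The promoters of 4 mitotic kinesins are shown because they belong to the members with the largest changes in each direction. Capitals mark the CHR element, spelled TTTGAA, and the CCAAT box, also where they lie on the opposite strand and so read in reverse complement. Sequences are those of RefSeq on GRCh38.p14, read 5′ to 3′ in the direction of the gene, from 250 bases before to 50 bases after the start. KIF20B (chr10:89701340-89701639, + strand) and KIF14 (chr1:200620702-200621001, - strand) rose, while KIF18B (chr17:44947724-44948023, - strand) and KIF20A (chr5:138178862-138179161, + strand) fell.
KIF20B: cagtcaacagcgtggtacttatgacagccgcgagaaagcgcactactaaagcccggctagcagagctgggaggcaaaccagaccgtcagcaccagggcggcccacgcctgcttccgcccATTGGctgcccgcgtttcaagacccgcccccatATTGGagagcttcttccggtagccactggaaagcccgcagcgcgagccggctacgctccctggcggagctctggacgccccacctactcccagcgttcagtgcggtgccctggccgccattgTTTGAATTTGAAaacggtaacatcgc
KIF14: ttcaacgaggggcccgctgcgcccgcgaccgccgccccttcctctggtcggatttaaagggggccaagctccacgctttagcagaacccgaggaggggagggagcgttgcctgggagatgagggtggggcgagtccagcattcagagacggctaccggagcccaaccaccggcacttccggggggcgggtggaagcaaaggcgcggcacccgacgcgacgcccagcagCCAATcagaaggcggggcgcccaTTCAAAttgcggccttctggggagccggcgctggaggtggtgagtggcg
KIF18B: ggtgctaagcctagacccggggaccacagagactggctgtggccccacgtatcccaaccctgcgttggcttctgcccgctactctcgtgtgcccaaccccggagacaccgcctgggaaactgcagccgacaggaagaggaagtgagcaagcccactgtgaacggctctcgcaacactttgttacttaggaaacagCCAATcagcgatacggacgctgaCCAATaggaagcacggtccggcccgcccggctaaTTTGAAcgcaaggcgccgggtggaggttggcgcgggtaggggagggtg
KIF20A: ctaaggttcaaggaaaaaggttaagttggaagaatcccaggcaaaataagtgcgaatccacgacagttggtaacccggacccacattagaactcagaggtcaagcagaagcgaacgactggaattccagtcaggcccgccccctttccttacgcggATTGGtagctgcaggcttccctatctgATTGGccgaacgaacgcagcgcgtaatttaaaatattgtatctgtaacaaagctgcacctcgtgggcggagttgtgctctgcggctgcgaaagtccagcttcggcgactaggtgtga

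KIF20B has a pair of adjoining TTTGAA copies after its start, KIF14 and KIF18B have 1 copy each just after the RefSeq start, and KIF20A has none in this window. All 4 promoters hold CCAAT boxes. Searched on both strands, TTTGAA was in the promoters of 10 of 15 mitotic kinesins, 1 of 12 transport kinesins with a promoter in the table (KIF5B) and 0 of 8 other kinesins, against 18.2% of 27305 genes. Within the mitotic promoters it lay between 55 bases before and 36 bases after the start. CCAAT was in 11 of 15 mitotic, 4 of 12 transport and 3 of 8 other promoters, against 39.7% of genes. The E2F-like letters TTTGGCG were in 2 of 15 mitotic, 1 of 12 transport and 0 of 8 other promoters, against 2.32% of genes, and TTTCCCG was in 0, 0 and 1 of them, against 5.19%. No copies of different motifs overlapped. TTTGAA was in the promoters of 3 of the 3 mitotic kinesins that rose, 4 of the 6 that fell and 2 of the 4 that did not pass, and thus occurred in promoters of both directions. A match describes these letters and is not evidence of a bound site.

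KIF20B and KIF20A are related kinesin-6 motors of late mitosis that moved in opposite directions. KIF20B, which localises to the midbody and is needed for late cytokinesis, had 125, 136 and 108 CPM in siSURF2 libraries and 87.5, 87.3 and 93.6 CPM in siSCR libraries. All siSURF2 libraries lay above all siSCR libraries, with siSURF2 replicate 2 the highest and replicate 3 the closest to siSCR. The log2 fold change of 0.46 ± 0.07 (SE, adjusted p = 3.0e-06) was 0.38 without siSURF2 replicate 2. KIF20A, or MKLP2, which carries the chromosomal passenger complex to the central spindle, had 144, 145 and 141 CPM in siSURF2 libraries and 176, 174 and 183 CPM in siSCR libraries. The groups did not overlap and lay close within themselves, and KIF20A fell by 0.31 ± 0.05 (log2, adjusted p = 4.7e-06). Per kb of exon, the ratio of KIF20B to KIF20A was 0.500, 0.542 and 0.442 in siSURF2 libraries and 0.288, 0.289 and 0.295 in siSCR libraries, a description with no test because the pair was chosen after the values were seen. KIF20A stayed the more abundant of the 2 per length in every library. KIF20B lies on chr10:89701610-89774939 (+ strand) and KIF20A on chr5:138178719-138187715 (+ strand) (GENCODE release 29, GRCh38).

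KIF23, or MKLP1, the third kinesin-6 motor, forms centralspindlin with RACGAP1 and bundles midzone microtubules. It had 222, 231 and 229 CPM in siSURF2 libraries and 266, 273 and 274 CPM in siSCR libraries. Every siSURF2 library was below every siSCR library, a fall of 0.25 ± 0.05 (log2, adjusted p = 4.9e-05). KIF14, a kinesin-3 motor that recruits citron kinase to the midbody, had 114, 125 and 114 CPM in siSURF2 libraries and 89.0, 99.2 and 97.5 CPM in siSCR libraries. These libraries did not overlap either, and KIF14 rose by 0.30 ± 0.06 (SE, adjusted p = 4.0e-05) on the log2 scale. KIF4A, a chromokinesin that acts with PRC1 to set the length of midzone overlaps, had 154, 159 and 149.7 CPM in siSURF2 libraries and 143, 134 and 144 CPM in siSCR libraries. Its groups were apart by a small margin, with a log2 fold change of 0.14 ± 0.05 (SE, adjusted p = 0.027). The call of KIF4A was lost without siSURF2 replicate 2 (adjusted p = 0.098) and without siSCR replicate 2 (adjusted p = 0.11), and reads that also match KIF4B, an intronless copy with too few counts to test, cannot be assigned with certainty. KIF14 lies on chr1:200551497-200620734 (- strand).

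Of 3 motors that build the bipolar spindle, KIF11 and KIFC1 fell in siSURF2 cells and KIF15 did not pass. KIF11, or Eg5, the tetrameric kinesin-5 that slides antiparallel microtubules apart, had 212, 222 and 211 CPM in siSURF2 libraries and 238, 242 and 253 CPM in siSCR libraries. No siSURF2 library reached the lowest siSCR library, and KIF11 fell by 0.19 ± 0.05 (log2, adjusted p = 0.0020). KIFC1, a minus-end-directed kinesin-14 that draws spindle poles together, had 114, 119.9 and 111 CPM in siSURF2 libraries and 131, 127 and 129 CPM in siSCR libraries. Here too the groups were separate, with a log2 fold change of -0.16 ± 0.05 (SE, adjusted p = 0.0089), and the call was lost without siSURF2 replicate 1 (adjusted p = 0.060). KIF15, a kinesin-12 that helps hold the spindle bipolar, had 50.3, 49.4 and 48.2 CPM in siSURF2 libraries and 45.9, 47.8 and 51.8 CPM in siSCR libraries. The groups of KIF15 overlapped, and it did not pass (adjusted p = 0.79).

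Among the motors that act on microtubule ends, KIF18B changed most. KIF18B, a kinesin-8 that limits the growth of astral microtubules, had 91.7, 81.5 and 87.2 CPM in siSURF2 libraries and 122, 122 and 112 CPM in siSCR libraries. The highest siSURF2 library was below the lowest siSCR library, and KIF18B, on chr17:44924709-44947711 (- strand), fell by 0.45 ± 0.06 (log2, adjusted p = 1.2e-07). Its relative KIF18A, which dampens chromosome movements at the metaphase plate, had 47.9, 55.7 and 52.0 CPM in siSURF2 libraries and 58.6, 55.0 and 55.1 CPM in siSCR libraries. The groups overlapped, and KIF18A did not pass (adjusted p = 0.13), though it did without siSURF2 replicate 2 (adjusted p = 0.043). KIF2A, a kinesin-13 that takes microtubules apart at spindle poles, had 110.4, 111 and 106 CPM in siSURF2 libraries and 118, 118 and 123 CPM in siSCR libraries. The groups were separate, and KIF2A fell by 0.13 ± 0.05 (log2, adjusted p = 0.033). That call was lost without siSURF2 replicate 1 (adjusted p = 0.098), without siSURF2 replicate 3 (adjusted p = 0.13) and without siSCR replicate 2 (adjusted p = 0.071). The call was also lost with upper-quartile factors (adjusted p = 0.14), no factors (0.080) and no filter (0.15). Of its exon bases 8.97% are shared with IPO11 on the same strand. KIF2C, or MCAK, the kinesin-13 of centromeres, had 215, 218 and 222 CPM in siSURF2 libraries and 224, 221 and 212 CPM in siSCR libraries. Its groups overlapped, and the difference was within the spread of the replicates (log2 fold change -0.01 ± 0.05, adjusted p = 0.94). KIF22, the chromokinesin Kid that pushes chromosome arms away from the poles, had 70.8, 73.7 and 68.6 CPM in siSURF2 libraries and 74.7, 74.6 and 74.0 CPM in siSCR libraries. Its siSURF2 libraries lay just below the siSCR libraries, and KIF22 did not pass (adjusted p = 0.31).

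Cell cycle markers are set beside the mitotic kinesins. Of 8 G2/M markers 0 rose, 4 fell and 4 did not pass. Every call was thus lower, whereas 25.8% of all genes tested were higher and 26.2% lower. Only the share called in either direction, 4 of 8, was near the 52.0% of all genes tested. The G2/M markers had a summed level of 2300 to 2431 CPM in siSURF2 libraries and 2713 to 2890 CPM in siSCR libraries. TOP2A, which untangles chromosomes, fell by 0.59 ± 0.05 (log2, adjusted p = 4.8e-11), and CCNB1, the mitotic cyclin, fell by 0.29 ± 0.05 (log2, adjusted p = 1.1e-05). Of 8 S-phase markers 7 fell (87.5%, against 26.2% of all genes) and 1 did not pass, with a summed level of 1291 to 1396 CPM in siSURF2 libraries and 1793 to 1848 CPM in siSCR libraries. MCM6, of the replicative helicase, fell by 0.93 ± 0.05 (log2, adjusted p = 5.7e-15), and CDC6, which loads that helicase, fell by 0.80 ± 0.05 (log2, adjusted p = 2.9e-13). In these bulk libraries, fewer cells in a phase and less RNA per cell cannot be told apart, and the part of cell cycle phase in the values of the kinesins was not tested.

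Genes whose products work with the mitotic kinesins moved mostly down, 1 higher and 14 lower of 21, with 6 that did not pass and a median log2 fold change of -0.22, against 25.8% higher, 26.2% lower and a median of 0.0042 over all genes tested. The 3 with the smallest adjusted p among those lower were KNSTRN, a spindle adaptor, which fell by 0.62 ± 0.05 (log2, adjusted p = 6.8e-11), CDCA8, a subunit of the chromosomal passenger complex, which fell by 0.51 ± 0.05 (log2, adjusted p = 2.0e-09), and BIRC5, or survivin, of the same complex, which fell by 0.40 ± 0.05 (log2, adjusted p = 5.5e-08). NUMA1, which anchors dynein at spindle poles, rose by 0.40 ± 0.05 (SE, adjusted p = 2.9e-07) on the log2 scale. CENPE had 87.1, 104 and 73.8 CPM in siSURF2 libraries and 80.8, 78.7 and 93.7 CPM in siSCR libraries. Its groups overlapped, and it did not pass (log2 fold change 0.06 ± 0.14, adjusted p = 0.73).

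Transport kinesins held the largest difference among the well-expressed members. KIF13B, a kinesin-3 that binds the scaffold DLG1 and carries vesicles to the cell edge, had 60.7, 56.4 and 54.2 CPM in siSURF2 libraries and 23.9, 23.9 and 25.2 CPM in siSCR libraries. Every siSURF2 library was above 2 times every siSCR library, and KIF13B rose 2.35-fold, by 1.23 ± 0.07 (SE, adjusted p = 7.1e-15) on the log2 scale. Its relative KIF13A, which moves mannose-6-phosphate receptors and recycling endosomes, had 73.3, 69.1 and 64.5 CPM in siSURF2 libraries and 56.3, 57.8 and 61.0 CPM in siSCR libraries. The groups were separate, with a smaller log2 fold change of 0.24 ± 0.06 (SE, adjusted p = 0.0014). Per kb of exon, KIF13B stood to KIF13A at 0.830, 0.817 and 0.841 in siSURF2 libraries and 0.424, 0.413 and 0.413 in siSCR libraries. This ratio was chosen after the values were seen and has no test. KIF13B lies on chr8:29067279-29263124 (- strand).

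KIF1A and KIF16B, also of the kinesin-3 family, moved in opposite directions. KIF1A, which carries synaptic vesicle precursors along axons, had 36.9, 35.1 and 33.3 CPM in siSURF2 libraries and 60.0, 55.6 and 49.2 CPM in siSCR libraries. All siSURF2 libraries lay below all siSCR libraries, and KIF1A, on chr2:240713761-240821036 (- strand), fell by 0.64 ± 0.07 (log2, adjusted p = 9.5e-09). KIF16B, which binds early endosomes through a lipid-binding PX domain, had 25.8, 24.1 and 24.6 CPM in siSURF2 libraries and 19.6, 18.7 and 19.5 CPM in siSCR libraries. The libraries of each group lay close together, and KIF16B rose by 0.37 ± 0.08 (SE, adjusted p = 2.2e-04) on the log2 scale. KIF1C, which carries dense-core vesicles and integrins, had 294, 306 and 277 CPM in siSURF2 libraries and 341, 320.1 and 299 CPM in siSCR libraries. Its groups overlapped, and its log2 fold change of -0.13 ± 0.05 (SE, adjusted p = 0.041) passed narrowly. The call of KIF1C was lost without siSURF2 replicate 1 (adjusted p = 0.13), siSURF2 replicate 3 (0.20), siSCR replicate 1 (0.17) or siSCR replicate 2 (0.12), and with DESeq2 (adjusted p = 0.055). It was lost as well with upper-quartile factors (adjusted p = 0.16), no factors (0.081) and no filter (0.11). KIF1B, which moves mitochondria and synaptic vesicle precursors, had 124, 124 and 121 CPM in siSURF2 libraries and 113, 117 and 119 CPM in siSCR libraries. It did not pass (adjusted p = 0.21), although the siSURF2 libraries lay above the siSCR libraries, and it passed with upper-quartile factors (adjusted p = 0.033).

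The KIF5 genes encode kinesin-1, the conventional motor, of which KIF5B is found in most tissues and KIF5A and KIF5C mainly in neurons. KIF5B had 269.6, 295 and 276 CPM in siSURF2 libraries and 303, 306 and 324 CPM in siSCR libraries. All siSURF2 libraries were below all siSCR libraries, and KIF5B fell by 0.15 ± 0.05 (log2, adjusted p = 0.013), a call that was lost without siSURF2 replicate 1 (adjusted p = 0.13) and with upper-quartile factors (adjusted p = 0.056). KIF5A had 14.8, 13.8 and 14.7 CPM in siSURF2 libraries and 8.15, 8.99 and 7.44 CPM in siSCR libraries. These groups were far apart for their spread, and KIF5A, on chr12:57549998-57586632 (+ strand), rose 1.77-fold, by 0.82 ± 0.11 (SE, adjusted p = 2.1e-07) on the log2 scale. KIF5C had 25.8, 29.6 and 29.4 CPM in siSURF2 libraries and 23.2, 24.8 and 25.1 CPM in siSCR libraries. KIF5C rose by 0.22 ± 0.08 (SE, adjusted p = 0.019) on the log2 scale with groups that nearly touched, and the call was lost without siSURF2 replicate 2 (adjusted p = 0.083), siSURF2 replicate 3 (0.075) or siSCR replicate 1 (0.092). Of the summed KIF5 level per kb, KIF5A made 4.65%, 3.97% and 4.49% in siSURF2 libraries and 2.35%, 2.55% and 2.02% in siSCR libraries, while KIF5B made 89.9%, 90.3% and 89.4% in siSURF2 libraries and 93.1%, 92.7% and 93.4% in siSCR libraries. The neuron-type heavy chains remained a small share of kinesin-1 mRNA in both groups.

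Heterotrimeric kinesin-2, made of KIF3A, KIF3B and KIFAP3, drives outward transport within cilia and moves late endosomes. KIF3A had 61.0, 62.4 and 62.5 CPM in siSURF2 libraries and 50.3, 50.5 and 49.2 CPM in siSCR libraries. KIF3B had 121, 136 and 124 CPM in siSURF2 libraries and 175, 181 and 179 CPM in siSCR libraries. The partners moved in opposite directions without overlap in either: KIF3A rose by 0.31 ± 0.06 (SE, adjusted p = 4.0e-05) on the log2 scale and KIF3B, on chr20:32277664-32335011 (+ strand), fell by 0.49 ± 0.05 (log2, adjusted p = 7.8e-09). Per kb of exon, KIF3A stood to KIF3B at 0.448, 0.406 and 0.450 in siSURF2 libraries and 0.256, 0.248 and 0.245 in siSCR libraries, a ratio computed after the values were seen and given with no test. KIF3B was thus the more abundant per length in every library. KIF3C, which can pair with KIF3A in place of KIF3B, had 107, 103 and 98.2 CPM in siSURF2 libraries and 116, 115 and 124 CPM in siSCR libraries, and fell by 0.21 ± 0.05 (log2, adjusted p = 0.0017) with groups apart. KIFAP3 had 12.8, 13.7 and 13.2 CPM in siSURF2 libraries and 15.9, 13.4 and 15.2 CPM in siSCR libraries. The KIFAP3 groups overlapped, and it did not pass (log2 fold change -0.16 ± 0.10, adjusted p = 0.16). KIF17, the homodimeric kinesin-2 of dendrites and cilia, had 4.62, 5.21 and 5.30 CPM in siSURF2 libraries and 8.33, 7.17 and 7.39 CPM in siSCR libraries. It fell by 0.59 ± 0.14 (log2, adjusted p = 5.8e-04), at low levels but without overlap.

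**Figure D3:**
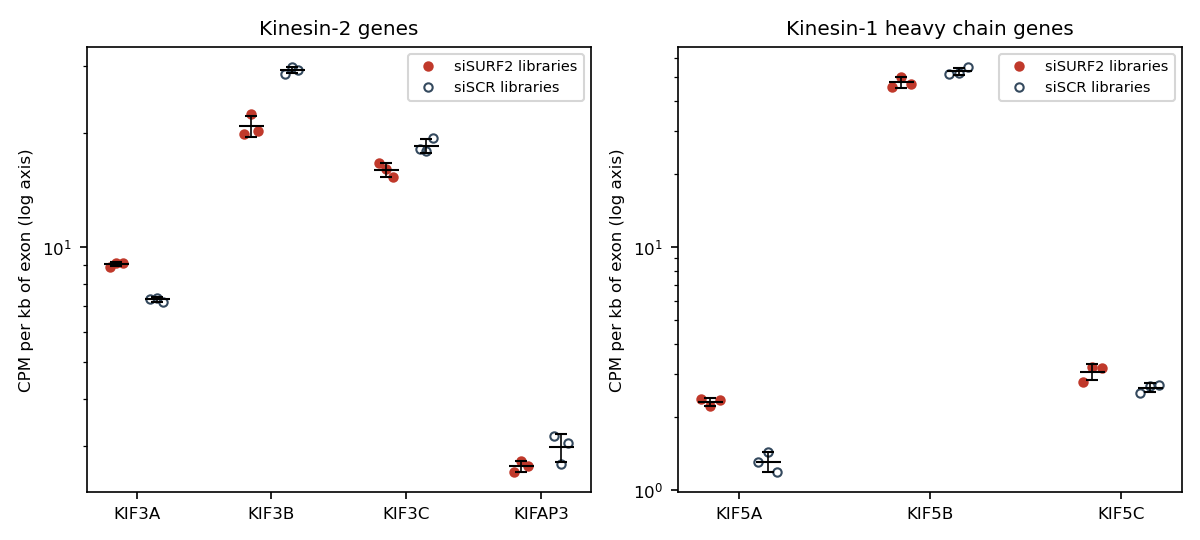
CPM per kb of exon, on a log axis, in each library (points) and group mean with SD (n = 3 each) for the kinesin-1 and kinesin-2 genes, siSURF2 left of siSCR. KIF3A is higher and KIF3B lower in siSURF2, KIF5B is lower by a small margin at a high level, and KIF5A is higher at a low level.

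Transport kinesins that move toward microtubule minus ends rose. KIFC2, known from neurons, had 32.9, 25.9 and 36.1 CPM in siSURF2 libraries and 23.5, 20.3 and 18.6 CPM in siSCR libraries. Its siSURF2 replicate 2 was the lowest of its group and still above the highest siSCR library, and KIFC2 rose by 0.61 ± 0.11 (SE, adjusted p = 2.6e-04) on the log2 scale. Of its exon bases 17.8% overlap FOXH1 on the opposite strand. The labels and notes give no strand setting for the counting, so reads within that shared stretch cannot be told apart. KIFC3, which acts at cell junctions and in apical transport, had 111, 122 and 114 CPM in siSURF2 libraries and 98.7, 101 and 84.0 CPM in siSCR libraries. It rose by 0.29 ± 0.06 (SE, adjusted p = 2.7e-04) on the log2 scale, with no overlap between groups.

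Because KIF5A, KIF5C, KIF1A, KIF17, KIFC2 and KIF21B are best known from neurons, neural markers are set beside them. Of 6 neural markers 5 were tested, of which 3 rose, 1 fell and 1 did not pass, while GFAP was too low to test, with a summed level of 98.7 to 102.9 CPM in siSURF2 libraries and 65.1 to 70.4 CPM in siSCR libraries. MAP2, a dendritic microtubule protein, rose by 2.00 ± 0.09 (SE, adjusted p = 4.5e-17) on the log2 scale, while RBFOX3, a nuclear marker of neurons, fell by 1.00 ± 0.09 (log2, adjusted p = 1.1e-10). Of the 6 kinesins named, 4 rose and 2 fell, against 25.8% higher and 26.2% lower of all genes tested. All 6 had passed the threshold, so these counts describe only the genes picked. KIF1B, which also moves synaptic vesicle precursors, is not among them and did not pass (adjusted p = 0.21). The part of the neural markers in the values of these kinesins was not tested.

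Genes for cargo adaptors and kinesin-1 light chains were 9 higher and 5 lower of 23, with 9 that did not pass and a median log2 fold change of 0.12. That is 60.9% called, against 52.0% of all genes tested (25.8% higher and 26.2% lower), so the share is near the background. TRAK1, which links kinesin-1 to mitochondria, rose by 0.80 ± 0.06 (SE, adjusted p = 1.5e-12), PLEKHM2, or SKIP, which links kinesin-1 to lysosomes, by 0.86 ± 0.06 (SE, adjusted p = 2.4e-12), and MADD, an adaptor of KIF1A and KIF1B, by 0.66 ± 0.06 (SE, adjusted p = 2.7e-10) on the log2 scale. RHOT2, or Miro2, the mitochondrial anchor of TRAK proteins, fell by 0.23 ± 0.06 (log2, adjusted p = 8.0e-04), and CLSTN1, or calsyntenin-1, which binds kinesin light chains, fell by 0.20 ± 0.05 (log2, adjusted p = 0.0015).

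The opposing motor, dynein, with dynactin and its adaptors, was 8 higher and 5 lower of 24, with 11 that did not pass and a median of 0.04. The 54.2% called are close to the 52.0% of all genes tested, so the count does not set these genes apart. BICD2, a dynein adaptor, rose by 0.50 ± 0.06 (SE, adjusted p = 1.9e-08), ACTR1A, the main subunit of the dynactin filament, by 0.34 ± 0.05 (SE, adjusted p = 4.5e-06) and DCTN3 of the dynactin shoulder by 0.33 ± 0.05 (SE, adjusted p = 7.1e-06) on the log2 scale. DYNLT1, a dynein light chain, fell by 0.44 ± 0.06 (log2, adjusted p = 5.3e-07), DYNC1LI1, a light intermediate chain, by 0.36 ± 0.06 (log2, adjusted p = 3.9e-06) and DCTN4 of dynactin by 0.24 ± 0.05 (log2, adjusted p = 3.1e-04). Intraflagellar transport genes, whose trains are pulled by kinesin-2, were 8 higher and 5 lower of 15, with 2 that did not pass and a median of 0.18, or 53.3% higher and 33.3% lower against 25.8% and 26.2% of all genes tested. IFT57, IFT81 and IFT88, subunits of the IFT-B complex, rose by 0.55 ± 0.07 (SE, adjusted p = 6.1e-08), 0.56 ± 0.10 (SE, adjusted p = 1.9e-05) and 0.55 ± 0.11 (SE, adjusted p = 7.0e-05) on the log2 scale. IFT46, IFT20 and IFT25, of the same complex, fell by 0.97 ± 0.09 (log2, adjusted p = 6.6e-10), 0.37 ± 0.08 (log2, adjusted p = 2.0e-04) and 0.22 ± 0.07 (log2, adjusted p = 0.0077). The call of IFT25 was lost without siSURF2 replicate 1 (adjusted p = 0.11).

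Of the other kinesins, the KIF21 pair rose together. KIF21A, a kinesin-4 that restrains microtubule growth at the cell edge, had 104, 109 and 97.7 CPM in siSURF2 libraries and 70.3, 78.0 and 78.8 CPM in siSCR libraries. KIF21B, its relative best known from neurons and immune cells, had 24.1, 20.6 and 19.4 CPM in siSURF2 libraries and 11.9, 11.98 and 13.3 CPM in siSCR libraries. Neither pair of groups overlapped, and the log2 fold changes were 0.45 ± 0.06 (SE, adjusted p = 1.8e-07) for KIF21A and 0.78 ± 0.10 (SE, adjusted p = 7.6e-08) for KIF21B, on chr1:200969390-201023700 (- strand). KIF26A and KIF26B are atypical kinesins without ATPase activity. KIF26A, with 20.1, 19.9 and 20.9 CPM in siSURF2 libraries and 27.9, 24.8 and 22.3 CPM in siSCR libraries, fell by 0.30 ± 0.08 (log2, adjusted p = 0.0038). KIF26B, a target of WNT5A-ROR signalling, had 22, 12 and 20 counts in siSURF2 libraries and 10, 6 and 3 counts in siSCR libraries. These are few counts, and its siSURF2 replicate 2 was only 2 counts above the highest siSCR library. The log2 fold change was 1.42 ± 0.45 (SE, adjusted p = 0.0090), and the call was lost without siSURF2 replicate 1 (adjusted p = 0.061) and without siSCR replicate 3 (adjusted p = 0.075).

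Of the kinesins tied to cilia, KIF7, the ciliary-tip regulator of Hedgehog signalling, did not pass (log2 fold change 0.01 ± 0.07, adjusted p = 0.89), nor did KIF24, which holds back cilia at the mother centriole (-0.08 ± 0.06, adjusted p = 0.27). KIF27 (0.28 ± 0.18, adjusted p = 0.20), KIF9 (0.25 ± 0.12, adjusted p = 0.096) and KIF6 (0.61 ± 0.28, adjusted p = 0.068), which are linked to motile cilia, did not pass either. Each of these 3 passed when 1 library was left out: KIF27 without siSCR replicate 3 (adjusted p = 0.048), KIF9 without siSCR replicate 2 (0.039) and KIF6 without siSURF2 replicate 3 (0.049). KIF6 also passed with a filter of 1 CPM (adjusted p = 0.040), but its counts were few. They were 36, 32 and 28 in siSURF2 libraries and 20, 20 and 20 in siSCR libraries. On the opposite strand, KIF7 shares 11.8% of its exon bases with TICRR and KIF9 shares 14.9% with KIF9-AS1.

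Ordered by level per kb of exon, 4 of the 5 most abundant kinesins in both groups were mitotic. KIF2C was the highest, at 59.9 CPM per kb in siSURF2 cells and 60.1 in siSCR cells. KIF5B was next, at 47.7 CPM per kb in siSURF2 cells and 52.9 in siSCR cells, then KIF11, at 44.2 CPM per kb in siSURF2 cells and 50.3 in siSCR cells. KIF20A had 36.2 CPM per kb in siSURF2 cells and 44.9 in siSCR cells, and KIF23 34.6 CPM per kb in siSURF2 cells and 41.2 in siSCR cells. KIF5B, the leading transport kinesin, lay close to KIF11 in both groups. KIF13B stood at 5.14 CPM per kb in siSURF2 cells and 2.19 in siSCR cells, and KIF26B stayed the lowest of the tested members, at 0.0655 CPM per kb in siSURF2 cells and 0.0248 in siSCR cells. KIF5A reached 2.31 CPM per kb in siSURF2 cells and 1.31 in siSCR cells, still far below KIF5B. The order depends on the division by exon length. In plain CPM the transport kinesins KIF1C and KIF5B were the highest, at 292 and 280 CPM in siSURF2 cells and 320 and 311 CPM in siSCR cells.

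**Figure D4:**
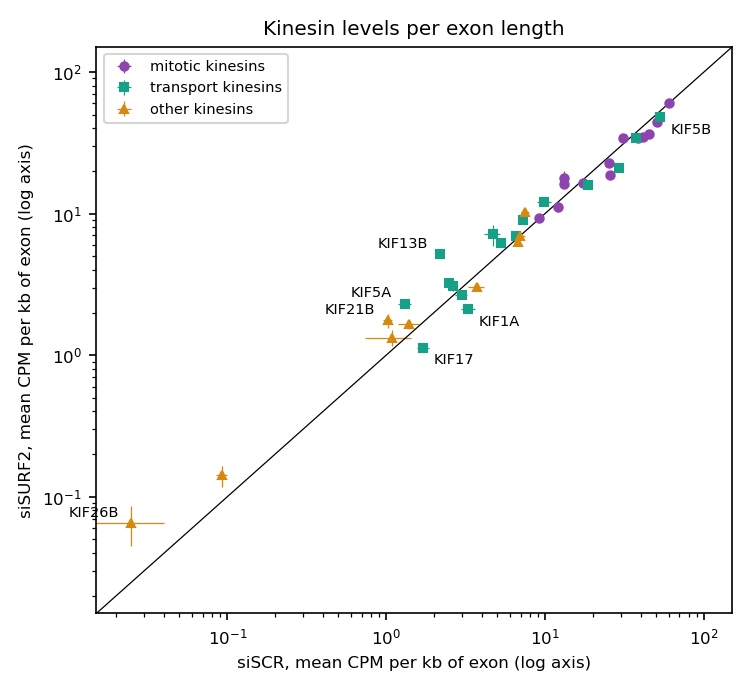
Mean level of each tested kinesin in siSURF2 (vertical axis) against siSCR cells (horizontal axis), in CPM per kb of exon on log axes, with SD bars (n = 3 each) and the line of equal level. The upper end holds mitotic kinesins and the transport kinesins KIF5B, KIF1C and KIF3B. KIF13B and KIF5A lie above the line and KIF1A and KIF17 below it.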

How the data were processed

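PolyA RNA was sequenced from 3 siSURF2 and 3 siSCR libraries of U2OS cells. The authors deposited raw counts of reads per gene, not normalized. Per the submitters' processing notes, fastp 0.23.1, STAR 2.5.2b and the build GRCh38 were used. Which tool and annotation counted the reads, and whether strand was used, is not given in the sources used, so how reads of paralogs and of overlapping genes were assigned is unknown. The exons of 20 kinesins overlap another gene of GENCODE release 29, for 18 of them a gene on the opposite strand, and for 5 of them (KIFC2, KIF9, KIF22, KIFC1 and KIF7) 1 such gene covers over 10% of the exon bases.

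From the counts, genes were kept with filterByExpr (minimum count 10, minimum total 15), scaled with TMM factors and tested with the quasi-likelihood F-test of edgeR 4.0.16 in R 4.3.3 (robust, 1 term for the group), two-sided, with Benjamini-Hochberg adjustment over 17561 genes. ERCC spike-in counts stayed out of library sizes and tests (1.12% to 1.72% of counts). SE is the size of the log2 fold change, fitted with no prior count, over the square root of F. CPM per kb divides CPM by the union of exons. At these depths 1 CPM is 16.8 to 20.0 counts.

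The members, role lists and partner lists were chosen with earlier results of these data known. Named genes were kinesins past 0.05 with an absolute log2 fold change of at least 0.3, those over 50 CPM, the KIF5 and KIF3 complexes, and up to 3 genes per direction and 2 cell cycle markers of each partner list by smallest adjusted p; other kinesins are named for completeness. A gene that the rule takes is not reported here.

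Alternatives were RLE, upper-quartile and no factors, ERCC library sizes, no filter and a filter of 1 CPM, DESeq2 1.42.0, limma-voom (limma 3.58.1), the replicate number as a block, and leaving out each library. The programs were tested on simulated data. Protein sequences were not used here.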

Additional observations from a re-analysis of the deposited data

How the results depend on the processing

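With library sizes from the ERCC spike-ins, 802 genes were higher and 825 lower in siSURF2 cells, and the called kinesins were 0 higher and 0 lower among mitotic, 1 higher and 0 lower among transport and 0 higher and 0 lower among other kinesins. Spike-ins made 1.12% to 1.72% of counts, and the cause of the loss was not tested. The medians of the 3 kinesin lists kept their sign there. Of the 26 partner genes and cell cycle markers that the naming rule takes, 4 kept their call with ERCC sizes and 0 changed sign. In the 14 other alternatives, 20 of the 27 called kinesins kept call and direction, and KIF2A, KIF4A, KIFC1, KIF1C, KIF5B, KIF5C and KIF26B lost the call in at least 1. Leaving out 1 library gave 4082 to 4292 genes higher and 3878 to 4574 lower, 2 to 3 mitotic kinesins higher and 4 to 7 lower, 7 to 8 transport kinesins higher and 4 to 6 lower, and 2 to 4 other kinesins higher and 1 lower. The medians were then -0.145 to -0.0501 for mitotic, 0.11 to 0.16 for transport and 0.25 to 0.46 for other kinesins. Some uncalled log2 fold changes near 0 changed sign: KIF15 (-0.0345 with ERCC sizes, -0.0247 to 0.0639 with 1 library left out), KIF7 (-0.0148 with ERCC sizes, -0.0452 to 0.0696 with 1 left out) and KIF2C (0.0406 with upper-quartile factors, 0.0205 with no factors, 0.0137 with no filter, -0.0377 to 0.0207 with 1 left out). The median of all genes shifted by at most 0.05. Same-numbered libraries did not deviate together (correlations 0.004, -0.09 and -0.04), and the replicate block gave 4478 genes higher and 4550 lower, 3 and 6 mitotic, 8 and 6 transport, and 3 and 1 other kinesins. Genes with few counts, such as KIF26B, KIF6 and the 5 untested kinesins, are limited by depth.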

Other observations

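Non-coding genes that carry a kinesin symbol were outside the protein-coding rule. KIF23-AS1, an antisense RNA at the KIF23 locus, had 1.59 ± 0.287 CPM in siSURF2 cells and 2.90 ± 0.246 CPM in siSCR cells (SD, n = 3 each), a log2 fold change of -0.86 ± 0.22 (SE; edgeR's quasi-likelihood test, adjusted p = 0.0018). KIF23 was lower as well. The 2 genes share 231 exon bases, or 3.51% of the exon bases of KIF23. The strand setting of the counting is not given, so reads within that shared stretch cannot be told apart. KIF9-AS1 had a log2 fold change of -0.23 and did not pass (adjusted p = 0.44). KIF28P, KIF1C-AS1 and KIF5C-AS1 had too few counts to test.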
